A study of Mus musculus with 12 samples.

Results

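Th1 cells with and without LDHA, the lactate dehydrogenase subunit that works at the last step of glycolysis, were compared for the transcription factors that steer CD4 T cells into other fates. The 8 genes, Gata3, Rora, Ahr, Maf, Bcl6, Prdm1, Foxp3 and Ikzf3, were taken by name from the deposited gene count table, with earlier results of these data known. All 8 were found among 39179 gene IDs, and 7 were among the 9914 genes abundant enough to be tested. In LDHA-KO cells Gata3, Ahr and Bcl6 rose by edgeR's test, by 3.90-fold, 4.56-fold and 3.09-fold. Each rested on few reads, 21, 9 and 20 in the 2 WT libraries together. DESeq2, a second tool, gave these 3 no adjusted p under its filter on low means. Without that filter it called Gata3 but not Ahr or Bcl6. Rora, Maf, Foxp3 and Ikzf3 did not pass edgeR's test, and Prdm1 was too low to be tested.

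RNA had been taken from primary C57BL/6 T cells in 2 libraries of wild-type (WT) and 2 of LDHA-KO genotype. The labels say neither how nor in which cells Ldha was deleted, and give no age of the animals. In both genotypes naive CD4 T cells had received anti-CD3 (5 µg/ml), anti-CD28 (2 µg/ml), IL-2 (100 U/ml), IL-12 (10 ng/ml), which drives Th1, and anti-IL-4 (10 µg/ml), which blocks Th2, over 3 days. All cells were then stimulated again with PMA (50 ng/ml) and ionomycin (1 µM) plus GolgiStop for 4 h. Chromatin libraries make up the remaining 8 of the 12 samples and were not analysed here.

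An activated CD4 T cell takes on a fate through a lead transcription factor, which switches on the cytokines of that fate and holds the other programmes down. T-bet does this for Th1, GATA3 for Th2, RORα with other factors for Th17, FOXP3 for regulatory T cells (Treg) and BCL6 for follicular helper cells. The aryl hydrocarbon receptor AHR, c-MAF, BLIMP-1 (the product of Prdm1) and Aiolos (the product of Ikzf3) act across several fates, and each has been tied to the making of IL-10.

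RefSeq promoter windows (GRCm38.p6, 250 bases before to 50 after a transcript's start) were at hand for 5 of the 8 genes, namely Gata3, Rora, Bcl6, Prdm1 and Foxp3. Those of Gata3 and Bcl6 are shown because these genes rose, and that of Prdm1 because BLIMP-1 and BCL6 repress each other's gene. Capitals mark matches on either strand to any of 8 short motifs. These were GCGTG, the core bound by AHR with ARNT, ACGTG, the core bound by HIF-1, TGANTCA, bound by AP-1, AGATAA, bound by GATA factors, AGGTCA, bound by ROR and other nuclear receptors, TGGAAA, an NFAT-like core, TTCNNNGAA, the STAT palindrome, and TGTTTAC, bound by forkhead factors.
Gata3, chr2:9878551-9878850, minus strand: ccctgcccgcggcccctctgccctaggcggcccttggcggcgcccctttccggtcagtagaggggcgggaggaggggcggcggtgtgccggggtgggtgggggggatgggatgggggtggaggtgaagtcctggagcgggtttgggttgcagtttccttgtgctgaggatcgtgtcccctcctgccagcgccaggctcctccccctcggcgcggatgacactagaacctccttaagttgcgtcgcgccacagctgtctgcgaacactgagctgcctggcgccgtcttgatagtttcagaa
Bcl6, first start, chr16:23988803-23989102, minus strand: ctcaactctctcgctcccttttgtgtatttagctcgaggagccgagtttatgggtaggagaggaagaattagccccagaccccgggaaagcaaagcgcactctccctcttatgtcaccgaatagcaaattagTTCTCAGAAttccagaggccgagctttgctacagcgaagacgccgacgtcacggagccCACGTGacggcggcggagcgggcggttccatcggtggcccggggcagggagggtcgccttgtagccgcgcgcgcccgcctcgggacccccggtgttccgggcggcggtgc
Bcl6, second start, chr16:23981234-23981533, minus strand: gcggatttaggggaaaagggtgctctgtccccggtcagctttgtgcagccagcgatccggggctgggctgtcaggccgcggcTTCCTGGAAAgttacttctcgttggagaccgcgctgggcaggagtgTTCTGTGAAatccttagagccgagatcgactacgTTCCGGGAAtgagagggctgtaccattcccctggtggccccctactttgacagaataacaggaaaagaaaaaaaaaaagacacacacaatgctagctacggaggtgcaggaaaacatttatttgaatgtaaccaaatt
Prdm1, chr10:44458699-44458998, minus strand: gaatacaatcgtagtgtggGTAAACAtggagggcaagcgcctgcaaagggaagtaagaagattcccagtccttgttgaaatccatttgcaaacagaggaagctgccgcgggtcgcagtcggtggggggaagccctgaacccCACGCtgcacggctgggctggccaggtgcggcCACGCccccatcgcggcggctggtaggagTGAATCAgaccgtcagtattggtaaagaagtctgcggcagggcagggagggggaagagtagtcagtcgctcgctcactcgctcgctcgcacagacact

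The Gata3 window held no match to any of the 8 motifs, as did 24.7% of 32851 mouse promoter windows of this length. Of its bases 67.3% were G or C, against a median of 52.7% over all windows. Both Bcl6 windows held the STAT palindrome, which 8.3% of all windows hold. The window of the first start had 1 match, at -118 from the start, and that of the second start had 3, at -168, -122 and -88, where 0.0335% of all windows have at least 3. The match to TGGAAA in the second window overlaps a STAT palindrome, and the single CACGTG of the first window counts as ACGTG on both strands (19.6% of windows hold ACGTG). The Prdm1 window held an AP-1 match at -48 (7.81% of all windows hold one), a forkhead match at -231 (3.65%) and 2 AHR cores (32.4%). Of the windows not printed, that of Rora held 1 AHR core and 1 HIF-1 core, and both Foxp3 windows held an AHR core. The second Foxp3 window also held a STAT palindrome, a GATA site (11.2% of all windows hold one), 2 ROR-type sites (16.3%) and an NFAT-like core (21.4%), the most kinds of motif among the windows of these genes. A match describes letters only and shows no binding.

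The libraries held 919741 to 1293178 reads over genes, so 1 read was worth 0.765 to 1.13 CPM (reads scaled to the TMM-adjusted library size, as for all levels given). Where no read was seen, up to 3 reads (2.3 to 3.39 CPM) remain possible from counting error alone. Ldha fell from 1055 and 1006 reads to 42 and 53, so both LDHA-KO libraries matched their label. The 8 T cell markers summed to 1489 and 1574 CPM in WT and to 1309 and 1282 CPM in LDHA-KO. Of these 8, 1 was called higher and 3 lower (15.6% and 15.4% of all tested genes). Cd8a, Ms4a1 and Pax5, defining genes of CD8 T cells and B cells, had at most 1 read per library. Ncr1 of natural killer cells and Lyz2 of myeloid cells had 0. Other markers had more. Of B cell markers, Ebf1 gave 17 and 20 reads in WT against 14 and 15 in LDHA-KO, and Cd79a 13 and 10 against 3 and 9. Cd8b1 of CD8 T cells gave 6 and 2 reads in WT against 3 and 8 in LDHA-KO, and Sdc1 of plasma cells 15 and 8 against 1 and 9. Summed over whole lists, 8 B cell markers gave 24.5 and 26.9 CPM in WT against 23.7 and 27.3 CPM in LDHA-KO, 6 natural killer and innate lymphoid markers gave 1 to 6 reads per library, 2 CD8 markers 2 to 9 and 4 plasma cell markers 1 to 15. Of 11 myeloid and dendritic cell markers, which summed to 335 and 334 CPM in WT against 398 and 414 CPM in LDHA-KO, Csf1r gave nearly all (log2 change 0.29, edgeR adjusted p = 0.00500) and the other 10 had at most 7 reads each. The part of Csf1r in the results was not tested.

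The strand setting of the counting is not known here, and this bears on every value. The gene mt-Nd6 lies on the strand of the mitochondrial genome opposite to mt-Cytb, yet its reads outnumbered those of mt-Cytb 3.72-fold and 4.09-fold in WT and 6.21-fold and 6.20-fold in LDHA-KO. Gapdh had 13 to 26 reads per library. Had a stranded library been counted on the opposite strand, a gene's value would be of reads antisense to it, and would hold the reads of any neighbour overlapping it on the other strand. Whether this happened was not tested, so overlaps are named beside the regulators and most of the called genes they touch. Of the other genes given, Ldha (by 1 base), Csf1r, Ms4a1, Pax5, Tiparp, Il6ra, Il21, Nrp1, Ikzf1, Ikzf4, Sin3a, Bcor, Chd4, Mbd2, Gata1, Gata2, Gata5 and Gata6 overlap noncoding RNA genes, and Cxcr5, Ikzf5 and Ncor1 overlap the protein-coding genes Bcl9l, Pstk and Ttc19. In bulk RNA, moreover, fewer cells of a type and less RNA per cell cannot be told apart.

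Across all 9914 tested genes edgeR's quasi-likelihood test called 31% (adjusted p under 0.05), with 15.6% higher in LDHA-KO and 15.4% lower. Genes called higher with at least a 2-fold change made up 3.38%. Of the 7 tested regulators 3 were called, all higher and all by more than 2-fold. This share cannot be read as a feature of the regulators, since the filter keeps a rare transcript that is abundant in 1 genotype alone. Ahr reached the filter's level in both LDHA-KO libraries and in no WT library, and Gata3 and Bcl6 reached it in 1 WT library each. With no filter the 3 genes were called as well (edgeR adjusted p = 9.55e-08 for Gata3, 8.96e-05 for Ahr and 0.000108 for Bcl6). Levels of the genotypes did not overlap for 7 of the 8 regulators, all but Maf, where 64.3% of all tested genes showed no overlap.

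**Figure D1:**
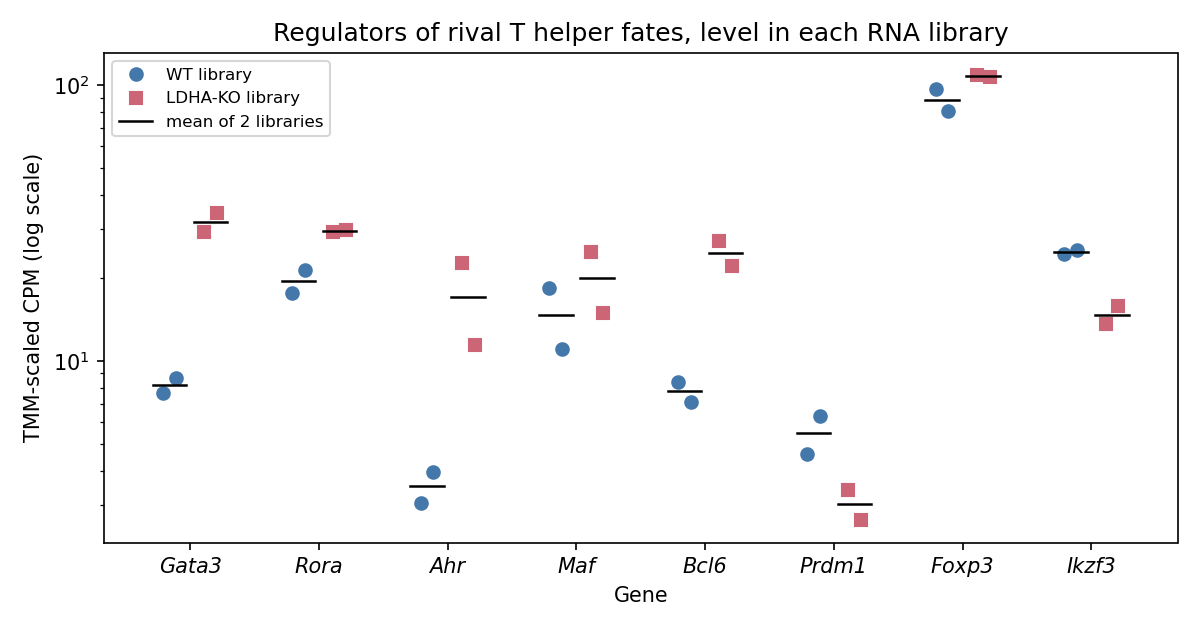
Level of each of the 8 regulators in every RNA library, in TMM-scaled CPM on a log axis; circles are WT libraries, squares are LDHA-KO libraries and bars are means of 2 libraries. Levels are not per transcript length, so they compare libraries within a gene, not genes with each other. Gata3, Ahr and Bcl6, which were called, and Rora and Foxp3, which were not, are higher in both LDHA-KO libraries. Prdm1 and Ikzf3 are lower in both, and Maf overlaps.

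Gata3, the lead factor of Th2 cells (ENSMUSG00000015619, chromosome 2, 9857078 to 9887953, GRCm38.p6), gave 10 and 11 reads in WT against 26 and 39 in LDHA-KO. Both LDHA-KO libraries stood above both WT libraries. Its mean level went from 8.18 ± 0.740 to 31.9 ± 3.50 CPM (± SD, n = 2 libraries each). The fitted log2 change was 1.96 (SE 0.32, 95% interval 1.31 to 2.62, edgeR adjusted p = 6.14e-06), and the ratio of summed reads was 3.94 (95% counting interval 2.38 to 6.79). With any 1 library left out the log2 change stayed at 1.84 to 2.07 and the gene was called. DESeq2 gave no adjusted p under its own filter on low means and 0.0273 without that filter. The Gata3 span holds the noncoding RNA gene 4930412O13Rik and shares 4913 bases with another, 9230102O04Rik, with at most 5 reads and 1 read per library.

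Among 135 tested genes of the lists used here, the gene closest to Gata3 in pattern was Zfpm1. The Euclidean distance between their centred log2 CPM values over the 4 libraries was 0.135. With 2 libraries per genotype, this distance, here and for the other regulators, largely follows the size of the change between genotypes. Genes outside the lists were not searched, and shared control was not tested. Zfpm1 encodes FOG1, a zinc finger protein that binds GATA factors and can repress their activity. It gave 61 and 60 reads in WT against 144 and 196 in LDHA-KO, a rise from 47.1 ± 0.544 to 168 ± 6.92 CPM (log2 change 1.84, SE 0.14, edgeR adjusted p = 9.75e-14). Within libraries the ratio of Zfpm1 to Gata3 reads was 6.10 and 5.46 in WT and 5.54 and 5.03 in LDHA-KO, an overlap that restates the choice of Zfpm1 for its likeness to Gata3. The ratio of Gata3 to Tbx21 reads, Tbx21 being the gene of T-bet, was 0.0575 and 0.0710 in WT and 0.265 and 0.336 in LDHA-KO. That the genotypes did not overlap in this ratio largely restates the change of Gata3. Tbx21 itself was not called (log2 change -0.27, edgeR adjusted p = 0.113). Zfpm1 overlaps Gm39269 on the opposite strand.

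The Th2 cytokine genes Il4, Il5 and Il13, which GATA3 is known to switch on, were near 0 in both genotypes. Il4 gave 5 and 3 reads in WT against 5 and 2 in LDHA-KO, Il5 0 and 2 reads in WT against 0 and 0 in LDHA-KO and Il13 1 and 2 reads in WT against 0 and 2 in LDHA-KO, and no difference was detectable at this depth. Not every gene of the Th2 list was this low. Ptgdr2, named after its value was seen, gave 73 and 65 reads in WT against 45 and 78 in LDHA-KO. It was not called (log2 change 0.18, edgeR adjusted p = 0.503) and overlaps the protein-coding gene Ccdc86. Of 22 Th2 programme genes 8 were tested, 2 rose and 1 fell (15.6% and 15.4% of all tested genes). The median log2 change of these 8 was 0.12, against -0.01 over all tested genes. Besides Zfpm1 the riser was Stat6, the transcription factor gene downstream of IL-4 (159 ± 19.7 to 219 ± 8.48 CPM, log2 change 0.46, edgeR adjusted p = 0.000925), which overlaps Nab2 and Gm30989. Nfil3 fell from 40.8 ± 0.701 to 20.9 ± 7.18 CPM (log2 change -1.004, edgeR adjusted p = 0.00208). Stat6 and Nfil3 lost their calls with DESeq2 (adjusted p = 0.0877 and 0.175), and Nfil3 also without LDHA-KO replicate 2 (-0.64, edgeR adjusted p = 0.162).

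**Figure D2:**
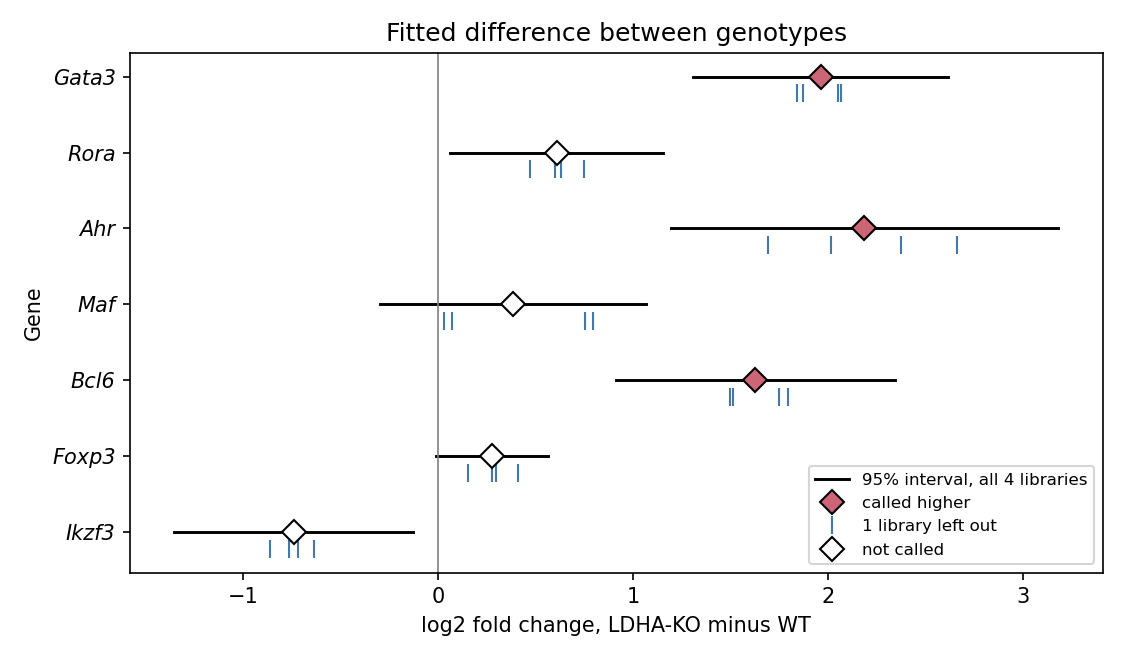
Log2 change of the 7 tested regulators, LDHA-KO minus WT (diamonds, filled where called higher), with 95% intervals from edgeR's quasi-likelihood fit (lines) and the values with 1 library left out (ticks). The intervals of Gata3, Ahr and Bcl6 start at 1.31, 1.19 and 0.91, and the ticks of Ahr run from 1.69 to 2.66.

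Ahr (ENSMUSG00000019256, chromosome 12, 35497979 to 35534989) encodes a ligand-activated transcription factor of Th17, IL-22 producing and IL-10 producing T cells. It gave 4 and 5 reads in WT against 20 and 13 in LDHA-KO, the fewest reads of the called regulators. Both LDHA-KO libraries stood above both WT libraries but lay far apart, at 22.6 and 11.5 CPM, while WT had 3.06 and 3.95 CPM. The log2 change was 2.19 (SE 0.49, 95% interval 1.19 to 3.18, edgeR adjusted p = 0.000569), and the ratio of summed reads was 4.67 (95% counting interval 2.19 to 11.1). The call was lost without LDHA-KO replicate 1 (1.69, edgeR adjusted p = 0.119) and with DESeq2 run without its filter on low means (2.27, adjusted p = 0.157). Ahr overlaps no other RefSeq gene.

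Arnt, the gene of the partner that AHR needs to bind DNA, was not called (log2 change 0.54, SE 0.23, edgeR adjusted p = 0.0718). The ratio of Ahr to Arnt reads was 0.118 and 0.139 in WT and 0.625 and 0.271 in LDHA-KO. Of the genes that active AHR induces, Tiparp gave 20 and 19 reads in WT against 15 and 34 in LDHA-KO and was not called (log2 change 0.67, SE 0.31, edgeR adjusted p = 0.100). Cyp1a1 (1 and 0 reads in WT, 2 and 1 in LDHA-KO), Cyp1b1 (2 and 0, 0 and 1) and Ahrr, the gene of the AHR repressor (0 and 5, 2 and 0), were too low to be tested. Of 20 AHR pathway genes 8 were tested, 1 rose and 1 fell (15.6% and 15.4% of all tested genes), with a median log2 change of 0.28. The riser was Hsp90ab1, a chaperone gene whose product holds AHR and many other proteins (3300 ± 26.1 to 4706 ± 89.5 CPM, log2 change 0.51, edgeR adjusted p = 2.38e-12). The gene closest to Ahr in pattern was Egr2, at a distance of 0.536, the widest among the 7 tested regulators.

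Rora (ENSMUSG00000032238, chromosome 9, 68653404 to 69388246) encodes RORα, a nuclear receptor that takes part in the Th17 programme. It gave 23 and 27 reads in WT against 26 and 34 in LDHA-KO. At 17.6 and 21.4 CPM in WT against 29.4 and 29.9 CPM in LDHA-KO the genotypes did not overlap, but the log2 change of 0.61 (SE 0.27, 95% interval 0.06 to 1.15, edgeR adjusted p = 0.0829) missed the threshold. Its ratio of summed reads was 1.53 (95% counting interval 1.03 to 2.27), and its nearest gene in pattern was Stat6, at a distance of 0.121. Inside the Rora span, on the opposite strand, lies the noncoding RNA gene Gm15511, which gave 17 and 20 reads in WT against 34 and 43 in LDHA-KO and rose from 14.4 ± 1.99 to 38.2 ± 0.408 CPM (log2 change 1.399, SE 0.27, edgeR adjusted p = 7.83e-05). Reads of Rora and Gm15511 cannot be told apart without the strand. Another 4 noncoding RNA genes overlap Rora.

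The signature cytokines of Th17 cells were near 0, with no read of Il17a in any library, at most 1 of Il17f per library, and for Il22 2 and 3 reads in WT against 3 and 8 in LDHA-KO. Of 26 Th17 programme genes 17 were tested, 5 rose and 2 fell (15.6% and 15.4% of all tested genes), with a median log2 change of -0.02. Among the risers were genes of IL-6 signalling, Il6st, which encodes the shared receptor chain gp130 (19.5 ± 1.55 to 58.0 ± 5.99 CPM, log2 change 1.56, SE 0.23, edgeR adjusted p = 6.16e-07), and Stat3, which acts below it (435 ± 21.8 to 767 ± 34.1 CPM, log2 change 0.81, SE 0.07, edgeR adjusted p = 1.32e-12). Il6ra, the gene of the IL-6 binding chain, named after its value was seen, was not called (log2 change -0.78, edgeR adjusted p = 0.104). Batf, an AP-1 family gene needed for Th17 and follicular helper cells, rose by 0.89 (edgeR adjusted p = 7.10e-05). Il21r (0.33) and Nfkbiz (0.45) had edgeR adjusted p = 0.0292 and 0.0465, and both lost their calls with DESeq2 (adjusted p = 0.345 and 0.413) and with any 1 library left out. Hif1a and Furin fell (log2 changes -0.40 and -0.60, edgeR adjusted p = 9.33e-05 and 2.32e-11). Stat3 overlaps Gm46295, Hif1a Gm15283 and Furin Gm44851.

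Foxp3, the lead factor of Treg cells (ENSMUSG00000039521, chromosome X, 7579676 to 7595243), gave 126 and 102 reads in WT against 96 and 121 in LDHA-KO, the most reads of the 8 regulators. Levels were 96.4 and 80.7 CPM in WT against 109 and 107 CPM in LDHA-KO, which did not overlap. The log2 change of 0.28 (SE 0.14, edgeR adjusted p = 0.139) did not pass the test, with a 95% interval of -0.01 to 0.56. With 1 library left out it ran from 0.15 (without WT replicate 2) to 0.41 (without WT replicate 1). The ratio of Foxp3 to Tbx21 reads was 0.724 and 0.658 in WT and 0.980 and 1.04 in LDHA-KO. Its nearest gene in pattern was Foxo1, at a distance of 0.0355, the smallest among the 7 tested regulators. The last 1435 bases of the Foxp3 span are shared with Ccdc22, a protein-coding gene on the opposite strand, whose own row gave 1 and 2 reads in WT against 1 and 0 in LDHA-KO. Reads of Foxp3 and Ccdc22 cannot be told apart without the strand. Flicr, a noncoding RNA gene over the start of Foxp3 on the same strand, gave 8 and 4 reads in WT against 11 and 13 in LDHA-KO and was called higher (log2 change 1.33, SE 0.49, edgeR adjusted p = 0.0341).

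Of 26 Treg programme genes 19 were tested, 3 rose and 8 fell, with a median log2 change of -0.42. Over all tested genes 15.6% rose and 15.4% fell. The list mixes genes of differing roles, not only genes raised along with Foxp3, so its counts and median do not measure a Treg programme. Many of its genes are also switched on in any activated CD4 T cell. Il2ra, which encodes the high-affinity IL-2 receptor chain CD25, fell from 1356 ± 22.7 to 696 ± 48.2 CPM (log2 change -0.97, SE 0.06, edgeR adjusted p = 1.54e-16). Ctla4, the gene of an inhibitory receptor that competes for the ligands of CD28, fell from 328 ± 48.3 to 153 ± 8.77 CPM (log2 change -1.09, SE 0.11, edgeR adjusted p = 4.38e-11). The chromatin organiser gene Satb1, the repressor gene Bach2, the OX40 gene Tnfrsf4 and Cbfb, which encodes the partner of RUNX factors, had log2 changes of -0.82, -0.61, -0.62 and -0.77 (edgeR adjusted p = 9.04e-13, 4.13e-06, 9.92e-06 and 6.23e-05). Stat5a, which acts below the IL-2 receptor, and the GITR gene Tnfrsf18 rose by 0.61 and 0.63 (edgeR adjusted p = 1.50e-09 and 6.80e-05). Ikzf2, the gene of the Treg factor Helios, gave 2 and 3 reads in WT against 4 and 1 in LDHA-KO. Il2ra overlaps Gm39760, Bach2 Bach2os, Tnfrsf18 Gm16008, Tnfrsf4 Sdf4 by 16 bases, and Cbfb AI225912 and Gm22063.

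**Figure D3:**
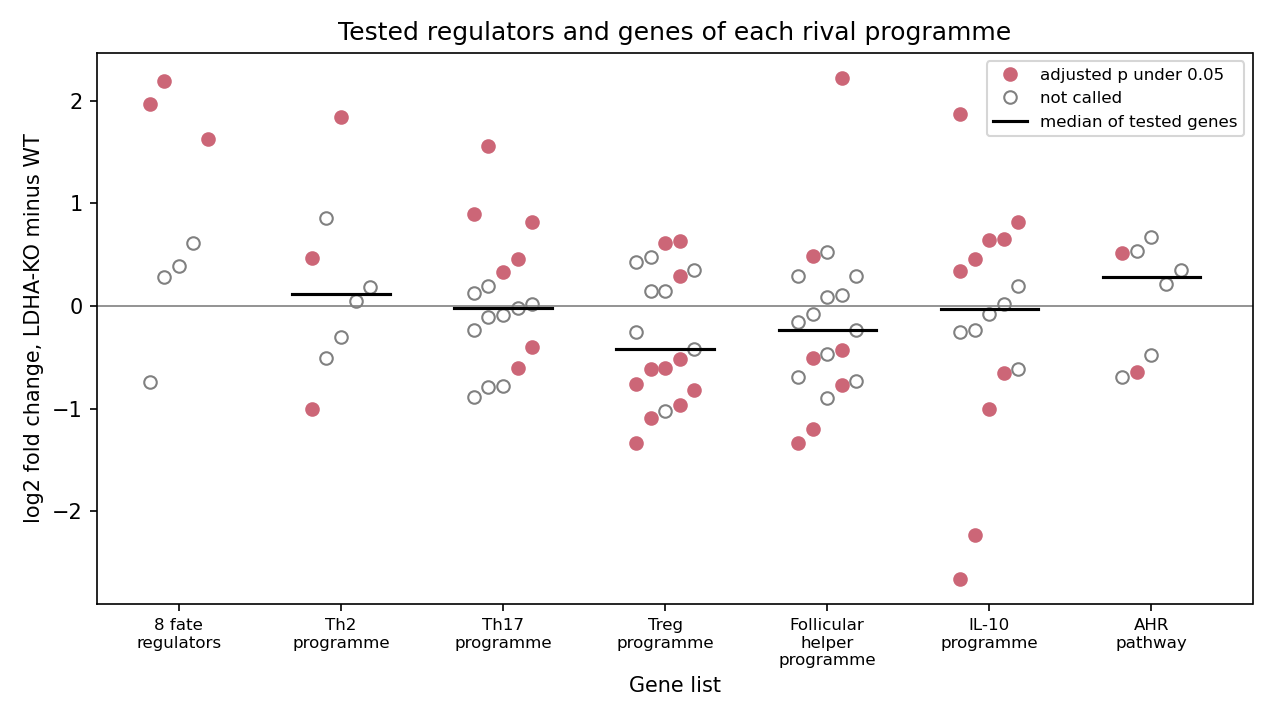
Log2 change, LDHA-KO minus WT, of the tested regulators and of the tested genes of each rival programme; filled points passed edgeR's test at an adjusted p under 0.05, open points did not, and bars are medians of the tested genes of a list. Genes on several lists appear in each. The Treg list has the lowest median, -0.42, and each programme list has called genes on both sides of 0. Lists mix genes of differing roles, so a median does not measure a programme.

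Bcl6, the lead factor of follicular helper cells and a repressor of Prdm1 (ENSMUSG00000022508, chromosome 16, 23965050 to 23988866), gave 11 and 9 reads in WT against 24 and 25 in LDHA-KO. Both LDHA-KO libraries stood above both WT libraries, with a mean level going from 7.77 ± 0.919 to 24.6 ± 3.62 CPM. The log2 change was 1.63 (SE 0.35, 95% interval 0.91 to 2.34, edgeR adjusted p = 0.000373), and the ratio of summed reads was 3.12 (95% counting interval 1.82 to 5.54). With any 1 library left out it stayed at 1.5 to 1.80 and was called. DESeq2 without its filter on low means gave 1.66 with an adjusted p of 0.178, so it did not call the gene. The nearest gene in pattern was Il6st, at a distance of 0.253. The 600 bases at the 5′ end of Bcl6 are shared with the gene model Gm31527.

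Prdm1 (ENSMUSG00000038151, chromosome 10, 44437174 to 44528558) encodes BLIMP-1, a zinc finger repressor that opposes the follicular helper programme and marks terminal effector cells. It gave 6 and 8 reads in WT against 3 and 3 in LDHA-KO, too few to be tested, and both LDHA-KO libraries lay below both WT libraries. The mean level was 5.46 ± 1.23 CPM in WT against 3.02 ± 0.530 CPM in LDHA-KO. The ratio of summed reads, WT over LDHA-KO, was 1.83 (95% counting interval 0.662 to 5.82), an interval that includes no change. With no filter on low counts edgeR gave a log2 change of -0.85 (SE 0.67, adjusted p = 0.511). Prdm1 overlaps no other RefSeq gene.

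Set against each other within a library, which removes the scaling between libraries, Bcl6 had 1.83 and 1.13 times the reads of Prdm1 in WT and 8 and 8.33 times in LDHA-KO. The genotypes were far apart in this ratio, but it rests on 3 reads of Prdm1 in each LDHA-KO library and carries no test. It compares libraries, not the amounts of the transcripts, which differ in length.

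**Figure D4:**
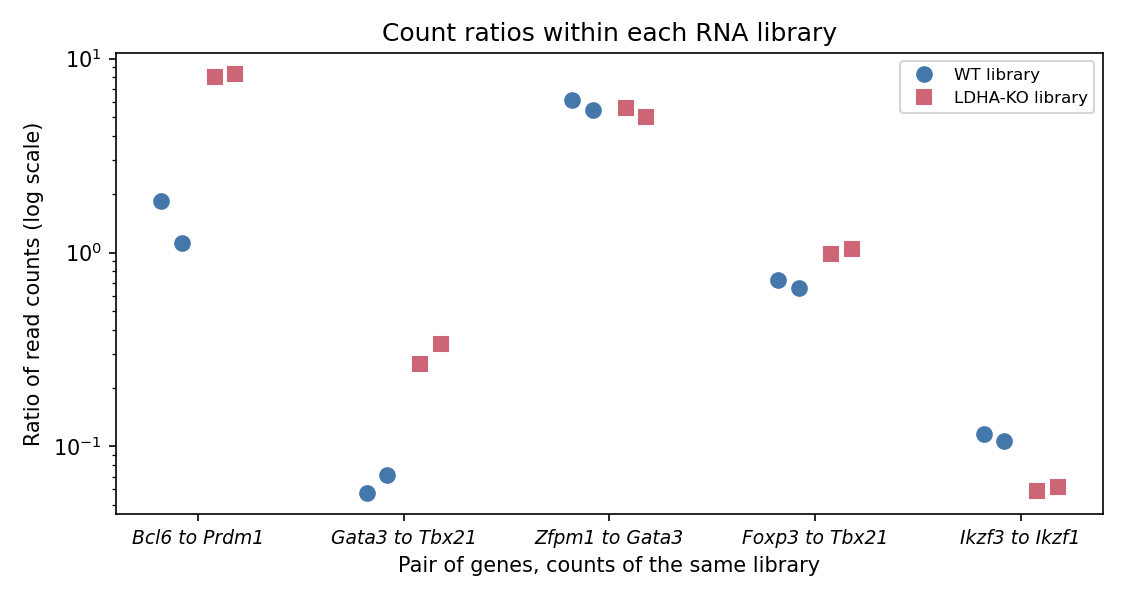
Ratio of the reads of 2 genes within each RNA library, on a log axis; circles are WT libraries and squares are LDHA-KO libraries. The ratios of Bcl6 to Prdm1, of Gata3 to Tbx21 and of Foxp3 to Tbx21 are higher in both LDHA-KO libraries. That of Ikzf3 to Ikzf1 is lower in both. That of Zfpm1 to Gata3, a pair chosen for its likeness, overlaps between genotypes.

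The follicular helper programme held changes in both directions. Of 26 follicular helper programme genes 19 were tested, 2 rose and 5 fell (15.6% and 15.4% of all tested genes), with a median log2 change of -0.24. Tox, which encodes an HMG-box factor that supports this fate, rose from 6.63 ± 1.80 to 31.1 ± 0.830 CPM (log2 change 2.22, SE 0.34, edgeR adjusted p = 1.90e-06), on 7 and 10 reads in WT against 27 and 36 in LDHA-KO. It shares its span with Gm11802, which gave 24 and 24 reads in WT against 100 and 100 in LDHA-KO (log2 change 2.40, edgeR adjusted p = 2.08e-12). Tcf7, the TCF-1 gene, which acts upstream of Bcl6, rose from 120 ± 9.30 to 169 ± 13.0 CPM (log2 change 0.48, edgeR adjusted p = 0.00173), a call lost with DESeq2 (adjusted p = 0.112), and overlaps Skp1 by 332 bases. The inhibitory receptor gene Btla and the surface glycoprotein gene Cd200 fell (log2 changes -0.77 and -0.51, edgeR adjusted p = 8.73e-07 and 0.000173). Klf2, whose product holds this fate back, Sh2d1a, the gene of the SLAM adaptor SAP, and the CD40 ligand gene Cd40lg also fell (log2 changes -1.34, -1.20 and -0.43, edgeR adjusted p = 0.00509, 0.0137 and 0.0208). Each of these 3 lost its call without WT replicate 2 (-1.26, -0.93 and -0.28), Klf2 and Cd40lg also without LDHA-KO replicate 2 (-1.14 and -0.48), and Sh2d1a and Cd40lg without LDHA-KO replicate 1 (-0.99 and -0.37), and Cd40lg with DESeq2 (adjusted p = 0.323). The defining receptor gene Cxcr5 gave 3 and 5 reads in WT against 2 and 5 in LDHA-KO. Pdcd1, the PD-1 gene, and Il21, the cytokine gene of these cells, were not called (log2 changes 0.52 and -0.24, edgeR adjusted p = 0.0620 and 0.0650).

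Maf (ENSMUSG00000055435, chromosome 8, 115703253 to 115706894) encodes c-MAF, which drives Il10 in several T helper fates and Il4 in Th2 cells. It gave 24 and 14 reads in WT against 22 and 17 in LDHA-KO. Levels of 18.4 and 11.1 CPM in WT against 24.9 and 14.97 CPM in LDHA-KO overlapped. The log2 change was 0.38 (SE 0.34, 95% interval -0.30 to 1.07, edgeR adjusted p = 0.419). Leaving out 1 library moved it within 0.03 to 0.80. Its nearest gene in pattern was Nrp1, at a distance of 0.251, and it overlaps no other RefSeq gene.

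Ikzf3, the Aiolos gene (ENSMUSG00000018168, chromosome 11, 98464610 to 98546031), encodes an Ikaros family zinc finger factor and was the single tested regulator with a negative value. It gave 32 and 32 reads in WT against 12 and 18 in LDHA-KO, or 24.5 and 25.3 CPM and 13.6 and 15.9 CPM. Both LDHA-KO libraries were lower, but the log2 change of -0.74 (SE 0.30, 95% interval -1.35 to -0.13, edgeR adjusted p = 0.0581) missed the threshold. The ratio of summed reads, WT over LDHA-KO, was 1.68 (95% counting interval 1.07 to 2.68). Scaling by library totals alone put it past the threshold (-0.82, edgeR adjusted p = 0.0344), as did thinning all libraries to the smallest (-0.94, edgeR adjusted p = 0.0389). The ratio of its reads to those of Ikzf1, the Ikaros gene, was 0.116 and 0.107 in WT and 0.0591 and 0.0621 in LDHA-KO. That the genotypes did not overlap in this ratio largely restates the levels of Ikzf3. Ikzf1 was not called (log2 change 0.13, edgeR adjusted p = 0.358). The nearest gene to Ikzf3 in pattern was Tnfrsf4, at a distance of 0.106. Ikzf3 contains the small pseudogene Gm25106.

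Il10, the cytokine gene to which Maf, Prdm1, Ahr and Ikzf3 have each been tied, fell. It gave 30 and 19 reads in WT against 1 and 7 in LDHA-KO, a mean level going from 19.0 ± 5.61 to 3.65 ± 3.56 CPM (log2 change -2.24, SE 0.48, edgeR adjusted p = 0.000323). In both LDHA-KO libraries it was below either WT library. The value depended on 1 library, at -1.60 without LDHA-KO replicate 1 and -3.94 without LDHA-KO replicate 2, called in both cases, and DESeq2 without its filter on low means did not call it (-2.31, adjusted p = 0.150). Of 18 IL-10 programme genes 16 were tested, 6 rose and 4 fell (15.6% and 15.4% of all tested genes), with a median log2 change of -0.03. Besides Stat3 the risers included Egr2, a zinc finger factor gene induced by antigen receptor signals (34.3 ± 7.40 to 126 ± 9.48 CPM, log2 change 1.86, SE 0.17, edgeR adjusted p = 1.03e-11), Bhlhe40, which encodes a repressor of Il10 (log2 change 0.34, edgeR adjusted p = 1.73e-05), and the inhibitory receptor gene Lag3 (log2 change 0.46, edgeR adjusted p = 0.00301). Lag3 lost its call with DESeq2 (adjusted p = 0.158), without WT replicate 2 (0.36) or without LDHA-KO replicate 2 (0.35). Besides Il10 and Nfil3, the fallers included the granzyme B gene Gzmb (log2 change -0.65, edgeR adjusted p = 0.000181). Egr2 overlaps Gm32255 and Bhlhe40 overlaps 0610040F04Rik.

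Close relatives of Gata3 were at or near 0, and those of Bcl6 changed in both directions. Gata1 had at most 1 read in a library, and Gata2, Gata4, Gata5 and Gata6 had 0 in all 4 libraries. Bcl6b had at most 1 read. Among other BTB zinc finger genes Zbtb17 rose (log2 change 0.84, edgeR adjusted p = 2.09e-05), while Zbtb7b, the ThPOK gene of the CD4 lineage, fell (log2 change -0.69, edgeR adjusted p = 0.00187), as did Zbtb32 (log2 change -0.62, edgeR adjusted p = 0.000248). DESeq2 called neither fall (adjusted p = 0.144 and 0.0543). Zbtb17 overlaps Spen and Gm42337, Zbtb7b overlaps Gm15417 and Zbtb32 overlaps Gm32082. Of 33 family relatives 17 were tested, 2 rose and 5 fell (15.6% and 15.4% of all tested genes), with a median log2 change of -0.13. Relatives of the regulators that were not called, named after their values were seen, included the small MAF genes Maff (log2 change -0.69, edgeR adjusted p = 0.00261) and Mafg (log2 change -0.63, edgeR adjusted p = 0.00290), which lack a transactivation domain and were not called by DESeq2 (adjusted p = 0.152 and 0.170). Maff also lost its call without LDHA-KO replicate 1 (-0.48, edgeR adjusted p = 0.0867), and the third small MAF gene, Mafk, was not called (log2 change -0.13, edgeR adjusted p = 0.587). Foxp1, a relative of Foxp3 that keeps T cells quiescent, rose (log2 change 0.31, edgeR adjusted p = 0.0152) and lost its call with library totals alone (0.23), with DESeq2 (adjusted p = 0.271), without WT replicate 2 (0.30) or without LDHA-KO replicate 2 (0.23). Ikzf4 and Ikzf5, relatives of Ikzf3, had log2 changes of -1.02 and 0.69 and were not called (edgeR adjusted p = 0.0688 and 0.0577). Mafg overlaps Gm17586, and Foxp1 overlaps several noncoding RNA genes on both strands.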

How the data were processed

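Reads per Ensembl gene ID, as raw counts that the authors deposited in 1 table, were analysed for 4 RNA libraries, 2 per genotype. Column names carry genotype and number but no assay, and were read as RNA since they hold counts per gene. The submitters' processing notes name Trimmomatic 0.33, Bowtie2 2.2.6, FastQC 0.11.2, HTSeq 0.6.0, STAR 2.3.0e and mm10 (GRCm38) without roles. For strand, annotation and multi-mapping reads the settings were not given in the sources used here. Of 43374 rows, 4195 were exact repeats (1557 IDs) and were dropped, leaving 39179 IDs.

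Genotypes were compared by edgeR 4.0.16 in R 4.3.3 with its quasi-likelihood F-test, TMM scaling and default filter (minimum count 10, minimum total 15). Adjustment was by Benjamini-Hochberg over all tested genes, with calls at an adjusted p under 0.05. Levels are TMM-scaled CPM, SE is the log2 change over the root of F, and counting intervals are exact 95% intervals for counting error only. Alternatives were DESeq2 1.42.0, library totals alone, other filters, thinning, a replicate block and leaving out each library, and, added after seeing the data, DESeq2 without independent filtering.

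Replicates differed by more than counting noise (chi-square per gene 1.15 in WT and 1.23 in LDHA-KO). The spread beyond counting noise that edgeR fitted over all genes (common dispersion) was 0.00163, a coefficient of variation of 4.03%. Each library was counted as 1 sample, but these values do not show that replicates were independent. The labels do not name separate animals or cultures, and p-values reflect only how far these libraries spread, which may be technical. Same-numbered libraries were not paired.

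The regulators and gene lists were chosen with earlier results of these data known. The genes named were all 8 regulators, the called genes of each programme (the 8 lowest adjusted p at most), set signature genes, relatives of called regulators and the nearest gene in pattern. Positions, overlaps and promoters are RefSeq's (GRCm38.p6), looked up by symbol. Some genes of the lists are counted in the totals but not reported here by name.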

Additional observations from a re-analysis of the deposited data

How the results depend on the processing

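Gata3, Ahr and Bcl6 were higher under each alternative run, and Gata3 was called in each that gave an adjusted p. With 1 library left out Ahr ranged from 1.69 to 2.66 (log2 change) and lost its call at 1.69. DESeq2 without independent filtering gave 2.27 for Ahr and 1.66 for Bcl6, neither called, and DESeq2's own filter gave no adjusted p for Gata3, Ahr, Maf, Bcl6, Prdm1 and Ikzf3. Ikzf3 passed the threshold with library totals alone (-0.82) and after thinning (-0.94). The cause was not tested.

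Over all genes 3076 were called (1549 higher, 1527 lower), 931 by DESeq2 (516, 415) and 716 (413, 303) without independent filtering. With 1 library left out 1973 to 2412 were called (1018 to 1231 higher, 955 to 1208 lower), fewest without LDHA-KO replicate 2. The median log2 change of all genes was -0.01 with TMM and -0.09 with library totals alone, and 50.4% and 38.3% of the calls were higher. The replicate block called 2803 genes, 2792 of them among the 3076, and changed no call of a regulator. The labels give the numbers no shared source, and same-numbered deviations correlated at -0.0279.

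Of 37 called genes on the 6 programme lists, DESeq2 called 21, did not call 12 and gave no adjusted p for 4. DESeq2 without independent filtering called 16 and did not call 21. Those not called there included Klf2 and Sh2d1a (adjusted p = 0.512 and 0.654), and Batf, Tnfrsf18, Cbfb and Cd200 (0.0866, 0.0737, 0.0849 and 0.0991). Counts higher and lower, each with its range over the alternatives, were 2 (1 to 2) and 1 (0 to 2) for Th2, 5 (2 to 4) and 2 (1 to 6) for Th17, 3 (1 to 4) and 8 (5 to 9) for Treg, 2 (0 to 3) and 5 (1 to 5) for follicular helper, 6 (3 to 5) and 4 (1 to 5) for IL-10, 1 (1 to 2) and 1 (0 to 1) for AHR, 2 (1 to 2) and 5 (0 to 6) for relatives, 11 (3 to 9) and 3 (0 to 3) for cofactors and 3 (2 to 3) and 6 (4 to 7) for Th1. Depth limits what can be said of Prdm1 and the cytokine genes of rival fates.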

Other observations

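A list of corepressors and cofactors was also read. It mixes genes of differing roles, so its counts and median measure no programme. Of its 30 genes 28 were tested, 11 rose and 3 fell (15.6% and 15.4% of all tested genes). The median log2 change was 0.11. Under the alternatives run only 3 to 9 rose. Besides Zfpm1, Ncoa1, a coactivator gene of nuclear receptors such as RORα, rose by 1.19 (edgeR adjusted p = 8.16e-05), Ncoa3 by 0.66 (7.55e-05) and Ehmt2, the gene of the G9a histone methyltransferase, by 0.89 (3.77e-08). Bcor, which encodes a corepressor of BCL6, rose by 0.40 (edgeR adjusted p = 0.0103) and lost its call with DESeq2 (adjusted p = 0.226), without WT replicate 1 (0.32) or without LDHA-KO replicate 1 (0.33). Ncor1 had a log2 change of 0.07 and was not called. Chd4, Mbd2 and Sin3a, which fell, were not called by DESeq2 (adjusted p = 0.254, 0.150 and 0.450), which called 5 of the list higher, and Sin3a stood at -0.08 without LDHA-KO replicate 2. Ncoa1 and Ncoa3 overlap gene models.

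On the Th1 list 3 of 14 tested genes rose and 6 fell (15.6% and 15.4% of all tested genes). Among its rises that in Twist1 was the largest by fold. Twist1 is induced in Th1 cells by T-bet and STAT4, and its product limits their cytokines. It gave 16 and 13 reads in WT against 83 and 113 in LDHA-KO, a mean level going from 11.3 ± 1.39 to 96.7 ± 4.00 CPM (log2 change 3.09, SE 0.23, edgeR adjusted p = 1.38e-14). The log2 change stood between 2.97 and 3.26 under the alternatives run, and the gene overlaps no other RefSeq gene. The genes of these lists were named after their values were seen.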
